A study of Saccharomyces cerevisiae with 58 samples.

Results

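The loss of mRNA after transcription arrest was compared between the *rpb6* mutant of Saccharomyces cerevisiae and its parental wild type, in cultures that had received no other stress. Of 58 arrays in the series, the 14 labelled as reference decay profiles were taken, 7 of each strain, at 0 min and then 5, 10, 20, 30, 40 or 50 min after 1,10-phenanthroline. Both strains are haploid and MATalpha and share the alleles ura3-52, his3delta200, lys2delta201 and ade2. The mutant has the chromosomal RPB6 locus disrupted by HIS3 and lives on a plasmid copy of RPB6, marked with LEU2, that carries a glutamine-to-arginine substitution. Cells were in mid-logarithmic growth in rich medium, and each course was taken from 1 culture of 1 strain with 1 array per time. A difference between the strains therefore cannot be told apart from a difference between these cultures, and the error of a slope is the scatter of its arrays about a line. The study describes a biological replicate of the mutant measurements, which is not among the 58 arrays. It also reports that the mutant grew more slowly than the wild type.

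1,10-phenanthroline is a metal chelator that stops transcription by all nuclear RNA polymerases, and the loss of an mRNA afterwards is read as its decay. Many mRNAs here rose relative to the rest after the drug, some by several log2 units, and the slopes of those are changes of relative level, not measures of stability. Rpb6 is a subunit shared by RNA polymerases I, II and III, and in RNA polymerase II it lies at the base of the Rpb4/7 heterodimer, which in yeast is known to act in transcription and also in the decay of mRNA in the cytoplasm. The substitution is known to weaken the hold of the polymerase on Rpb4/7, and the study asked whether mRNA decay differs in such cells.

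The levels are log2 values by robust multi-array average (RMA), which gives arrays closely similar distributions of values. A slope of log2 level on minutes is thus a loss or gain relative to the other mRNAs of the array, and a slope near 0 stands for an mRNA that kept its place among the others. The quantity compared is the slope in the mutant minus the slope in the wild type, in log2 units per min. It is positive where the mRNA was lost more slowly or gained more, relative to the rest, in the mutant. It is negative where the mRNA was lost faster or gained less. Among calls, slower stands for a positive difference and faster for a negative one. A slope difference of the same size in all mRNAs cannot be seen in these values. A common factor on all decay rates would show, as relative slopes nearer to 0, and was not tested.

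The 14 arrays did not all follow the order of their labels. Each array was projected on the change from the 0 to the 50 min array of its course, so that genes with larger changes weigh more. The wild type arrays lay at 0%, 11.9%, 26.6%, 51.0%, 74.8%, 90.5% and 100%. The mutant arrays lay at 0%, 4.25%, 31.8%, 9.01%, 60.3%, 83.2% and 100%, so that the array labelled 20 min stood nearer to the start than the array labelled 10 min. The mutant 20 min array was closest to the mutant 5 min array, with r = 0.999 over the 5716 probe sets tested. The heat shock gene HSP30, which encodes a small membrane protein of the plasma membrane, shows the same in single values. It read 8.35, 11.95, 13.75, 14.28, 14.47, 14.59 and 14.56 in the wild type, and its mutant values were 8.99, 9.37, 13.63, 11.29, 14.15, 14.37 and 14.43. Slope differences are therefore given with all 14 arrays and with 12, without the mutant arrays at 10 and 20 min, and the mutant slopes and errors printed once are from the 12. Probe sets of poly-A controls averaged 7.54 on the first and 8.15 on the last wild type array, and 7.75 and 8.41 in the mutant. Differences between 5′ and 3′ control probe sets averaged from -0.84 to -0.74 in the wild type and from -0.79 to -0.70 in the mutant, and the part of either in the results was not tested.

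**Figure D1:**
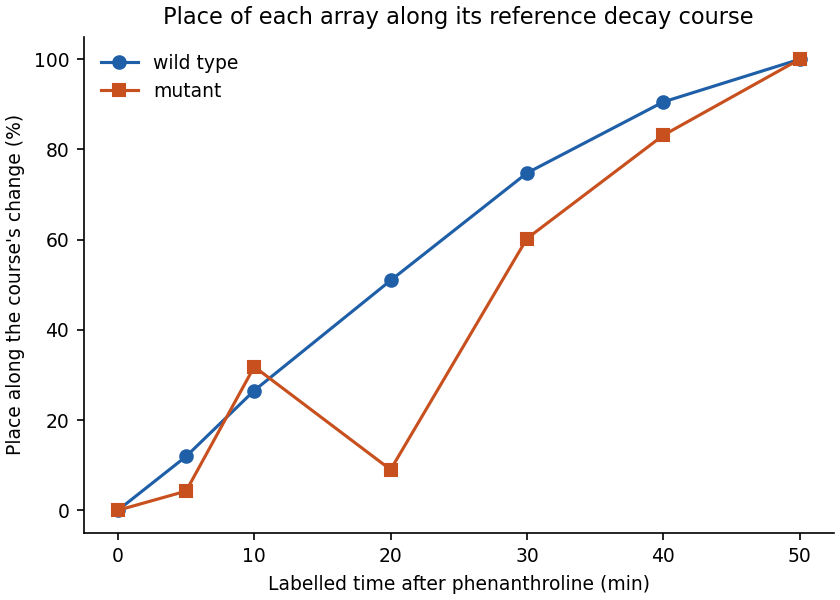
Place of each array between the 0 and 50 min arrays of its course (%, by projection over tested probe sets) against its labelled time (min), for 7 wild type arrays (circles) and 7 mutant arrays (squares). In the mutant the 20 min array lies at 9.01%, below the 10 min array at 31.8%, while the wild type arrays rise with time.

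The targeted gene and the strain markers were read on every array. RPO26, which encodes Rpb6, had log2 levels of 13.46, 13.37, 13.30, 13.05, 12.75, 12.58 and 12.58 in the wild type. Its mutant values were 13.01, 12.85, 12.54, 12.91, 12.50, 12.35 and 12.50. It was lower in the mutant at each labelled time, and its slope difference of 0.00963 did not pass with 14 arrays (adjusted p = 0.10) or 12 (0.00823, adjusted p = 0.074). RPB4 and RPB7, which encode the Rpb4/7 heterodimer, had slope differences of 0.00580 (adjusted p = 0.12) and -0.00177 (adjusted p = 0.73) with 12 arrays, and neither passed with 14 (adjusted p = 0.11 and 1.0). HIS3, the marker of the disrupted locus, began at 10.95 in the wild type, against 11.53 in the mutant, and ended at 10.42 and 10.56. Its high level in the wild type goes against the his3delta200 deletion of the stated genotype, so HIS3 does not check the labels. URA3 lay between 7.78 and 8.30 in the wild type and between 6.64 and 7.14 in the mutant. STE3, the a-factor receptor of MATalpha cells, began at 12.28 and 12.15, and STE2, the alpha-factor receptor of MATa cells, at 8.06 and 7.75, the order that MATalpha cells have, in both strains.

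The slope of relative level differed between the courses for many genes, in a shared pattern. With 14 arrays 1609 of 5716 probe sets, 28.1%, passed an adjusted p of 0.05, of which 805 (14.1% of those tested) were positive and 804 (14.1%) negative. With 12 arrays 1721 passed, 30.1%, of which 862 (15.1%) were positive and 859 (15.0%) negative. The 1521 that passed in both had the same sign in both, and they were 94.5% of the first set and 88.4% of the second. Leaving out the mutant 0 min array as well brought the 12-array count to 884. The same test called none of 1747 S. pombe probe sets, which have no target in these cells, with 14 or with 12 arrays. Without adjustment 112 and 115 of them had p under 0.05, against 2324 and 2432 of the S. cerevisiae probe sets. The S. pombe probe sets read near background and were adjusted among themselves. They therefore cannot show how many calls among expressed genes are false.

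The spread of slopes was narrower in the mutant. The SD of slopes over the tested probe sets was 0.0237 in the wild type, against 0.0178 in the mutant with 7 arrays or 0.0182 with 5, a ratio of 0.753 or 0.770. Slopes of the strains correlated across genes at 0.866 or 0.854. At 50 min the SD of the change from 0 min was 1.13 in the wild type, against 0.869 in the mutant. Of the 1521 probe sets called in both fits, 594 fell in the wild type and fell less in the mutant, and 461 rose in the wild type and rose less in the mutant. A further 135 fell in the wild type and rose in the mutant, and 254 did the reverse. Only 36 fell in the wild type and faster in the mutant, and 41 rose in the wild type and more in the mutant. Since the wild type slope enters the difference, part of this pattern is built in. The probe sets were therefore also sorted by the wild type slope in other cultures, those treated with H2O2 before phenanthroline, which share no array with these. Among the 2548 that fell there, 64.4% had a positive difference here with 12 arrays (65.3% with 14), and among the 3168 that rose there, 28.3% did (27.9%).

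**Figure D2:**
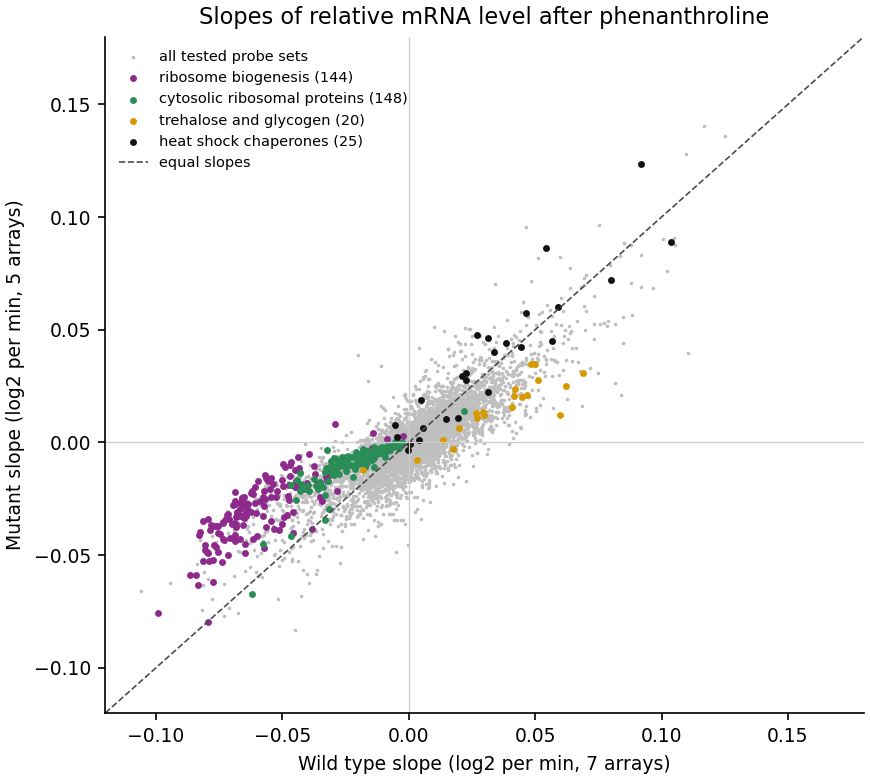
Slope of log2 level on time in the mutant (5 arrays, without 10 and 20 min) against the slope in the wild type (7 arrays), in log2 units per min, 1 point per probe set, with 4 gene lists in colour and a dashed line of equal slopes. Ribosome biogenesis genes lie above the line at the left (medians -0.0623 in the wild type, against -0.0307 in the mutant) and trehalose and glycogen genes below it at the right (0.0412 and 0.0148).

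The genes of ribosome biogenesis, the factors that process rRNA and assemble the subunits, were the group with the most positive differences. Of 144 measured, 118 passed as slower in the mutant with 14 arrays and 127 with 12, and none as faster. Among all probe sets 14.1% and 15.1% passed as positive. Their median slope was -0.0623 in the wild type, against -0.0307 in the mutant with 12 arrays, with a median difference of 0.0315 (0.0313 with 14), beside -0.00122 over all probe sets tested. By time, their median change from 0 min in the wild type was -0.16, -0.37, -0.91, -1.70, -2.44 and -2.95. In the mutant it was 0.01, -0.18, -0.01, -0.52, -1.09 and -1.53, so that the mutant at 50 min stood near the wild type at 30 min.

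SSF1, a factor of 60S subunit assembly, read 9.77, 9.44, 9.04, 8.39, 7.19, 6.49 and 5.85 in the wild type. In the mutant it read 8.95, 9.15, 8.72, 9.08, 8.28, 7.80 and 7.27. It began lower in the mutant and ended higher, and the wild type came close to the background of 5.21, the level below which 95% of S. pombe probe sets lie. Its slope difference was 0.0464 ± 0.00673 (SE, adjusted p = 0.00076) with 14 arrays and 0.0465 ± 0.00476 (adjusted p = 0.00029) with 12. UTP23, a component of the small subunit processome, fell by 3.96 on the log2 scale in the wild type and by 2.10 in the mutant from 0 to 50 min, with a slope difference of 0.0431 (adjusted p = 0.00036) with 12 arrays and 0.0429 (adjusted p = 0.00076) with 14. ROK1, an RNA helicase of 18S rRNA processing, and YTM1, a factor of 60S maturation, had differences of 0.0464 (adjusted p = 0.0012) and 0.0452 (adjusted p = 0.00042) with 12 arrays, and 0.0462 (adjusted p = 0.00076) and 0.0447 (adjusted p = 0.00067) with 14. LTV1, which takes part in the export of the 40S subunit, read 10.40, 10.33, 10.11, 9.70, 8.90, 8.24 and 7.72 in the wild type. In the mutant it read 10.02, 10.02, 10.00, 10.00, 9.75, 9.59 and 9.23. From 0 to 50 min LTV1 fell by 2.68 on the log2 scale in the wild type and fell by 0.78 in the mutant, with a slope difference of 0.0423 ± 0.00404 (SE, adjusted p = 0.00025) with 12 arrays and 0.0417 (adjusted p = 7.4e-05) with 14. NOP7, RPF2 and RIX1, factors of 60S subunit assembly, and NOP13 and RRT14, which encode nucleolar proteins, had differences between 0.0413 and 0.0429 with 12 arrays and between 0.0413 and 0.0421 with 14. With SSF1, ROK1, YTM1, UTP23, LTV1, NAF1 and URA1 they were the 12 most positive differences past the threshold with 14 arrays.

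Of 19 subunits of RNA polymerases I and III, 11 passed as slower with 14 arrays and 13 with 12, none as faster, with median differences of 0.0206 and 0.0192. RPA43, a subunit of RNA polymerase I, read 10.91, 10.63, 10.57, 9.98, 9.16, 8.15 and 7.39 in the wild type, and its mutant values were 10.47, 10.40, 10.31, 10.46, 9.92, 9.37 and 8.87. It started above the mutant in the wild type and ended below it, with a slope difference of 0.0414 ± 0.00598 (SE, adjusted p = 0.0012) with 12 arrays and 0.0406 (adjusted p = 0.0013) with 14. Of 28 tRNA and rRNA modification genes 20 passed as slower with 12 arrays and 18 with 14, none as faster (medians 0.0175 and 0.0168). NOP2, an rRNA methyltransferase, had 0.0408 (adjusted p = 0.00066) and 0.0405 (adjusted p = 0.00038). The nuclear and cytoplasmic exosome trims rRNA precursors and degrades RNA from the 3′ end. It had 12 of 18 genes positive with 12 arrays and 11 with 14, none negative (medians 0.0113 and 0.0110). RRP43, among the positive ones, rose in both strains and was not lost more slowly. Of 19 aminoacyl-tRNA synthetases 14 passed as slower with 12 arrays and 13 with 14, none as faster (medians 0.0123 and 0.0121). DED81, the asparaginyl-tRNA synthetase, fell by 1.60 in the wild type and by 0.48 in the mutant (0.0221, adjusted p = 0.0042, and 0.0219, adjusted p = 0.0021, with 14). URA1, which encodes the dihydroorotate dehydrogenase of pyrimidine synthesis, fell by 3.26 and 1.29, with a difference of 0.0424 (adjusted p = 0.0014) with 12 arrays and 0.0418 (adjusted p = 0.00086) with 14. The other genes of purine and pyrimidine synthesis did not share a direction, since of 22 in all 8 passed as positive and 6 as negative in either fit, with a median of -0.000521 with 12 arrays.

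Cytosolic ribosomal protein genes were lost more slowly in the mutant as well, from a smaller loss in the wild type. Of 148 probe sets, 111 passed as slower and 1 as faster with 14 arrays, and 98 and 0 with 12. The median slope was -0.0182 in the wild type, against -0.00672 in the mutant, and the median difference 0.0103 (0.0105 with 14). RPS0A, a protein of the 40S subunit, read 13.99, 13.97, 13.82, 13.61, 13.18, 12.48 and 11.85 in the wild type, and its mutant values were 13.96, 13.90, 13.79, 13.94, 13.67, 13.53 and 13.17. The strains began within 0.03 of each other, and from 20 min on the mutant was higher, with a slope difference of 0.0291 ± 0.00523 (SE, adjusted p = 0.0030) with 12 arrays and 0.0292 (adjusted p = 0.0017) with 14. Most such genes exist as near-identical pairs, and probe sets of a pair may share signal. Among 33 translation initiation and elongation factors 14 passed as slower with 14 arrays and 19 with 12, with none faster and medians of 0.00962 and 0.0101. TIF3, the initiation factor eIF4B, passed with 12 arrays only (0.0177, adjusted p = 0.039, against 0.053 with 14), and RPG1, a subunit of eIF3, with both (0.0165, adjusted p = 0.0097, and 0.0156, adjusted p = 0.022, with 14). The 14-array call of RPG1 was lost without the wild type 40 min or the mutant 0 min array.

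2 genes of ribosome production changed direction between the strains. NAF1, a chaperone of H/ACA small nucleolar RNA particles, read 10.40, 10.10, 10.24, 10.08, 10.29, 9.88 and 9.64 in the wild type. In the mutant it read 9.85, 9.83, 10.49, 9.88, 11.13, 11.12 and 11.38. Its slopes were -0.0111 and 0.0337, and the difference was 0.0448 ± 0.00533 (SE, adjusted p = 0.00061) with 12 arrays and 0.0435 (adjusted p = 0.0018) with 14. The 14-array call of NAF1 was lost over 0 to 30 min. RRP14, a nucleolar protein of ribosome synthesis that was chosen after its values were seen, fell from 11.94 to 10.45 in the wild type and rose from 11.61 to 11.98 in the mutant. Its difference of 0.0380 ± 0.00240 (SE) had an adjusted p of 7.3e-06 with 14 arrays, and with 12 it was 0.0374 (adjusted p = 9.9e-05).

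**Figure D3:**
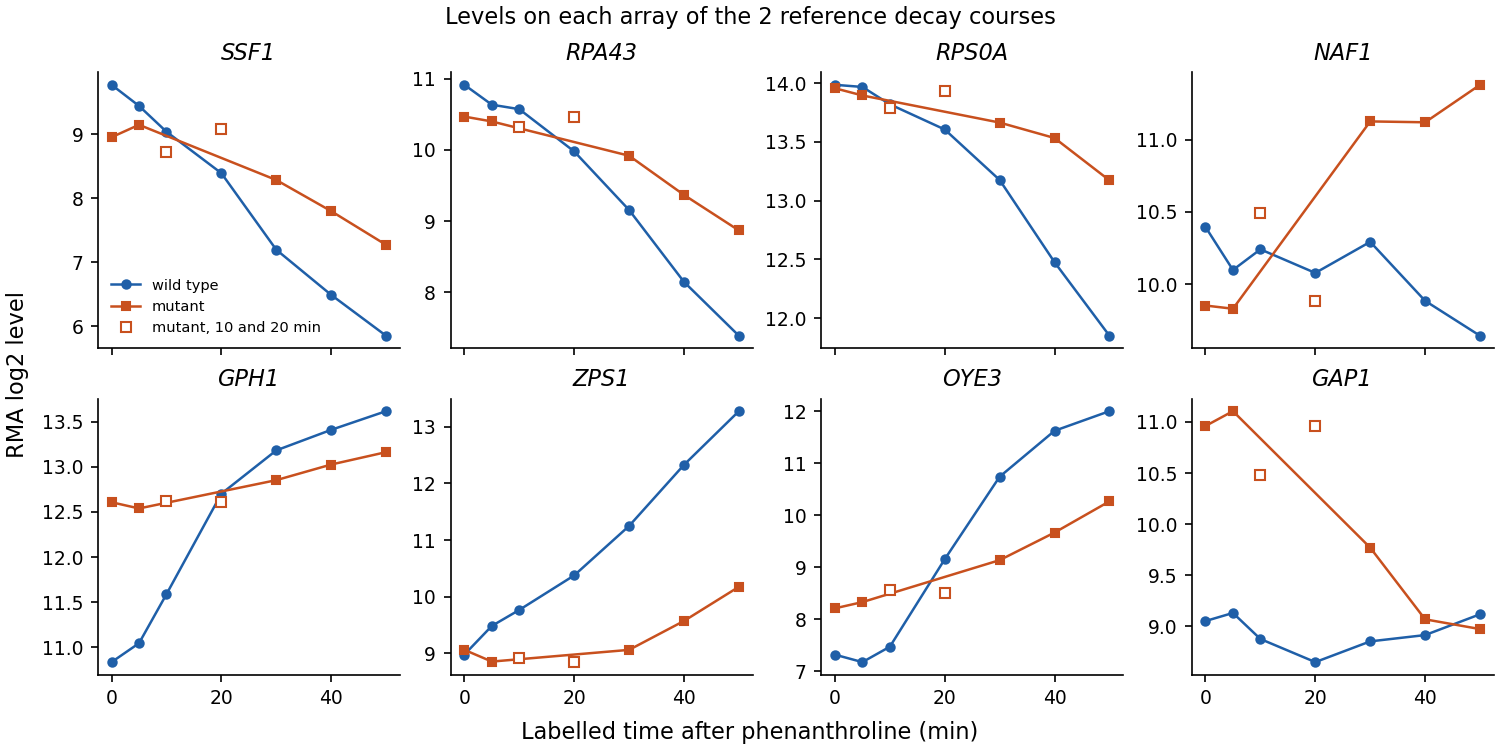
RMA log2 level on each array against labelled time (min) for 8 genes, wild type (circles) and mutant (squares, open for the arrays at 10 and 20 min, which the line leaves out). SSF1, RPA43 and RPS0A ended higher in the mutant, NAF1 rose there and fell in the wild type, GPH1, ZPS1 and OYE3 rose less there, and GAP1 fell from 10.96 to 8.97 in the mutant and lay at 9.05 and 9.12 in the wild type.

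The calls among genes of carbohydrate reserves and general stress were all negative, though many members did not pass. The trehalose and glycogen genes had a median slope of 0.0412 in the wild type, against 0.0148 in the mutant, and of 20 genes 11 passed as negative with 14 arrays, 10 with 12 and none as positive (median difference -0.0180, and -0.0179 with 14, but -0.0351 over 0 to 30 min). GPH1, the glycogen phosphorylase, read 10.84, 11.04, 11.59, 12.70, 13.18, 13.41 and 13.62 in the wild type, and its mutant values were 12.61, 12.54, 12.62, 12.61, 12.85, 13.03 and 13.16. The mutant began near the level that the wild type reached at 20 min and rose by 0.55 on the log2 scale, against 2.78 in the wild type. The slope difference was -0.0478 ± 0.00801 (SE, adjusted p = 0.0022) with 12 arrays and -0.0474 (adjusted p = 0.0010) with 14. GDB1, the glycogen debranching enzyme, had -0.0371 in both fits (adjusted p = 0.0015 and 0.0011). PGM2, a phosphoglucomutase, rose by 3.62 in the wild type, against 1.43 in the mutant, but its difference of -0.0381 did not pass (adjusted p = 0.088, and 0.069 with 14). Of 41 genes of the Msn2/4 general stress response 14 passed as negative in either fit and none as positive, so that 27 did not pass. For both lists the share to set beside these counts is 14.1% negative among all probe sets with 14 arrays and 15.0% with 12. Their median was -0.0148 with 14 arrays and -0.0143 with 12. The latter was -0.0335 over 0 to 30 min, -0.0260 without the wild type 50 min array, -0.00923 without the wild type 5 min array and -0.00942 without the mutant 50 min array. GAD1, glutamate decarboxylase, had -0.0364 (adjusted p = 0.0069), and -0.0363 (adjusted p = 0.0036) with 14. XBP1, a stress-induced repressor, had -0.0364 (adjusted p = 0.0032), and -0.0350 (adjusted p = 0.0019) with 14. ATG39, a receptor for autophagy of the nuclear envelope, rose by 2.51 in the wild type, against 0.67 in the mutant.

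In the lists of mitochondrial ribosomal proteins, oxidative phosphorylation and mitochondrial assembly the calls were nearly all negative, and many members did not pass. Of 71 mitochondrial ribosomal proteins 32 passed as negative with 14 arrays and 33 with 12, none as positive, with median slopes of 0.0171 and 0.00848. MRPL35 read 10.28, 10.55, 10.70, 10.84, 11.12, 11.29 and 11.42 in the wild type, and its mutant values were 10.59, 10.65, 10.70, 10.65, 10.70, 10.88 and 10.84. The mutant stayed between 10.59 and 10.88, and the difference was -0.0164 ± 0.00253 (SE, adjusted p = 0.0015) with 12 arrays and -0.0166 (adjusted p = 0.00074) with 14. Oxidative phosphorylation had 21 of 39 genes negative and 1 positive with 12 arrays, and 20 and 1 with 14. Mitochondrial assembly and import had 21 of 49 negative with 12 arrays and 18 with 14, none positive. The medians with 12 arrays were -0.00632 and -0.00902. Of 16 genes of the citric acid cycle 4 passed as negative and 1 as positive with 12 arrays, and 3 and 1 with 14. Over all probe sets 15.0% and 14.1% passed as negative, and so few calls do not set this list apart. NDI1, the internal NADH dehydrogenase, rose by 2.27 in the wild type, against 0.76 in the mutant. MDH1, the mitochondrial malate dehydrogenase and 1 of those 4, rose by 1.25 and 0.39, with a difference of -0.0192 (adjusted p = 0.0006) with 12 arrays and -0.0190 (adjusted p = 0.00025) with 14. The proteasome had 23 of 39 genes negative and 1 positive with 14 arrays and 17 and 3 with 12. The members positive with 12 arrays, RPN14, POC4 and IRC25, encode assembly chaperones of the proteasome, while PUP1, a core subunit, had -0.0115 (adjusted p = 0.033), and -0.0112 (adjusted p = 0.030) with 14. The PUP1 call was lost over 0 to 30 min, on leaving out any 1 of 6 arrays in either fit (wild type 10, 40 and 50 min, mutant 0, 5 and 40 min) and, with 14 arrays, with time point as a block.

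Among genes that answer to metal supply, calls in the zinc regulon were mixed, and those in the iron and copper regulons were all negative. Of 9 copper regulon genes only 2 passed in either fit. Any part of the chelator in these differences was not tested. ZPS1, a cell surface protein induced by zinc limitation, read 8.98, 9.48, 9.77, 10.38, 11.25, 12.33 and 13.28 in the wild type. In the mutant it read 9.06, 8.86, 8.92, 8.85, 9.06, 9.57 and 10.18. The strains began alike and were more than 3 log2 units apart at 50 min, with a slope difference of -0.0633 ± 0.00675 (SE, adjusted p = 0.00036) with 12 arrays and -0.0622 (adjusted p = 0.00018) with 14. Of the 23 genes of the zinc regulon 7 passed as negative and 3 as positive with 12 arrays, and 6 and 4 with 14. Their median of -0.00176 was -0.00400 without the wild type 50 min array and -0.000208 without the wild type 0 min array, so it has no firm size or side relative to all probe sets. ZRT3, the exporter of zinc from the vacuole, was among the negative ones (-0.0219, adjusted p = 0.00094, and -0.0215, adjusted p = 0.00039, with 14), and ZAP1, the zinc-responsive activator, passed with 12 arrays only (adjusted p = 0.030, against 0.071). Of the 29 genes of the iron regulon 10 passed as negative and none as positive with 12 arrays, and 8 and none with 14 (median with 12 -0.00954, and -0.00529 without the wild type 50 min array). They include CCC2, the copper transporter that loads the iron oxidase, at -0.0262 (adjusted p = 0.0017, and -0.0247, adjusted p = 0.0014, with 14). TIS11, which promotes decay of iron-use mRNAs, had -0.0267 (adjusted p = 0.017, and -0.0255, adjusted p = 0.012, with 14). LSO1, a small protein induced by iron limitation, rose from 4.75 to 8.49 in the wild type and from 5.50 to 6.89 in the mutant. Its slope difference was -0.0545 with 14 arrays. The wild type start lay below the background of 5.21 and the mutant start near it, so the size of either rise is uncertain. Outside the metal lists, 6 of 33 sulfate and methionine genes were negative and 1 positive with 12 arrays, and 7 and 1 with 14. That share of negative calls is not far from the 15.0% and 14.1% of all probe sets. MET10, a subunit of sulfite reductase, had -0.0334 (adjusted p = 0.00097), and -0.0331 (adjusted p = 0.00044) with 14. SUL2, a sulfate permease, had -0.0403 (adjusted p = 0.032), and -0.0396 (adjusted p = 0.035) with 14. With 12 arrays its call was lost on leaving out any 1 of 7, namely those of the wild type at 0, 5 and 40 min and of the mutant at 0, 5, 40 and 50 min (adjusted p from 0.056 to 0.12).

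**Figure D4:**
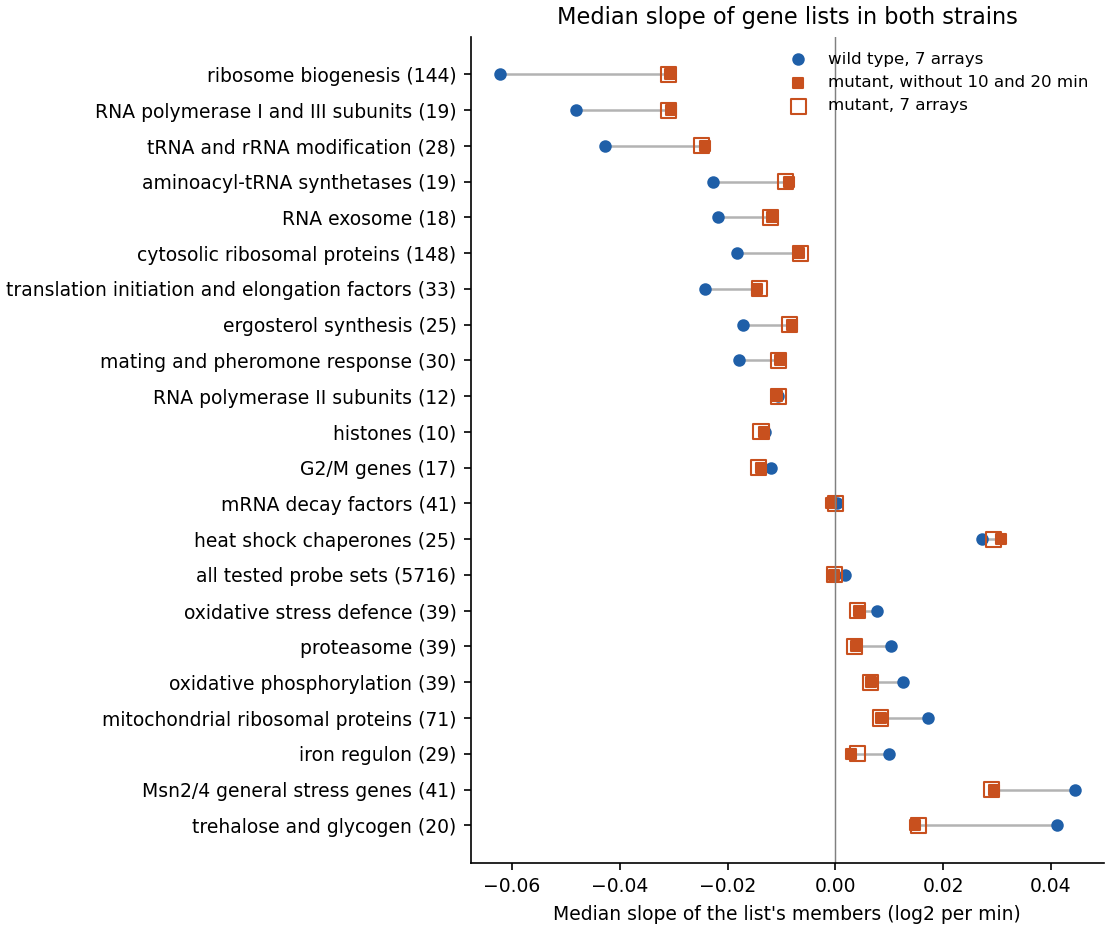
Median slope (log2 units per min) of the measured members of 21 gene lists and of all tested probe sets, in the wild type (circles) and in the mutant with 5 arrays (filled squares) and 7 arrays (open squares), with the number of members in brackets. The mutant medians lie nearer to 0 in ribosome biogenesis (-0.0307 against -0.0623) and trehalose and glycogen genes (0.0148 against 0.0412), and heat shock chaperones lie at 0.0308 and 0.0272.

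Other groups had few calls in number. Over all probe sets 14.1% passed as positive and 14.1% as negative with 14 arrays, and 15.1% and 15.0% with 12. Heat shock chaperones rose in both strains, with median slopes of 0.0272 in the wild type, against 0.0308 in the mutant, and 2 of 25, YDJ1 and AHA1, passed as positive with 12 arrays and only YDJ1 with 14, and none as negative. Their median difference of 0.00481 turned to -0.00475 over 0 to 30 min and to -0.00247 without the wild type 50 min array. SSA4, a stress-induced Hsp70, rose by 4.51 and 3.99 on the log2 scale, with a difference of -0.0151 ± 0.0225 (SE, adjusted p = 0.64, and 0.60 with 14). BTN2, a sorting factor for misfolded proteins, rose by 3.02 and 3.67 (0.0319 ± 0.0249, SE, adjusted p = 0.35, and 0.67 with 14). The genes of mRNA decay itself had 3 of 41 positive and 6 negative in either fit, with a median of -0.000507 with 12 arrays that ran from -0.00187 without the mutant 0 min array to 0.000292 without the wild type 50 min array. PAB1, the poly-A binding protein, was lost more slowly in the mutant (0.0147, adjusted p = 0.010, and 0.0145, adjusted p = 0.014, with 14). Of 12 RNA polymerase II subunits 4 passed as slower with 14 arrays and 3 with 12, larger shares than over all probe sets. The difference was positive in 9 of the 12 in either fit. RPB5, RPB8 and RPB10, which like Rpb6 are shared by all nuclear RNA polymerases, passed in both. With 12 arrays all these calls were lost without the mutant 0 min array, and that of RPB10 also without the mutant 5 min array. With 14 arrays the call of RPB5 was lost in 9 of 27 alternatives, that of RPB10 in 6 and that of RPB8 in 2. Of 10 histone probe sets 1 of HTA2 passed in both fits, and the other probe set of that gene did not. Of 17 G2/M genes 1 passed with 12 arrays and 0 with 14.

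Lists of mixed outcome lay between these groups. Of 25 ergosterol synthesis genes 11 passed as positive and 1 as negative with 12 arrays, and 10 and 1 with 14, with a 12-array median of 0.00644 that went to 0.00294 without the mutant 0 min array. ERG6, a sterol methyltransferase, fell from 13.39 to 12.55 in the wild type and lay at 13.41 and 13.40 on the first and last mutant arrays. Of 30 mating genes 8 passed as positive and 2 as negative with 12 arrays, and 8 and 1 with 14 (12-array median 0.00777, and 0.0025 without the wild type 0 min array), and of 38 genes of G1/S and replication 11 and 2, and 10 and 1 with 14. Of 44 Gcn4-regulated amino acid synthesis genes 13 passed as positive and 6 as negative, and 11 and 7 with 14. Of 19 genes of folding in the endoplasmic reticulum 1 passed as positive and 7 as negative, and 0 and 7 with 14, and their 12-array median difference of -0.00537 turned to 0.00046 over 0 to 30 min. Hexose transporters had 1 positive and 6 negative of 14 with 12 arrays, and 1 and 5 with 14.

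3 genes singled out for their courses fell in the mutant and stayed near level in the wild type, and they stand for no list. GAP1, the general amino acid permease, read 9.05, 9.13, 8.88, 8.65, 8.85, 8.92 and 9.12 in the wild type, and its mutant values were 10.96, 11.11, 10.48, 10.97, 9.77, 9.07 and 8.97. It began almost 2 log2 units higher in the mutant and came near the wild type at 40 min, with a slope difference of -0.0455 ± 0.00572 (SE, adjusted p = 0.00077) with 12 arrays and -0.0452 (adjusted p = 0.0022) with 14. MEP2, an ammonium permease, and PUT1, proline oxidase, were chosen after their values were seen. MEP2 fell by 1.44 in the mutant and changed by 0.02 in the wild type (-0.0333, adjusted p = 0.00097, and -0.0332, adjusted p = 0.0010, with 14). PUT1 fell by 1.61 in the mutant and by 0.07 in the wild type (-0.0313, adjusted p = 0.00049, and -0.0310, adjusted p = 0.0023, with 14). Over 0 to 30 min the 14-array differences of GAP1, MEP2 and PUT1 were -0.0235, -0.0185 and -0.0151 and none passed, and with 12 arrays the calls of GAP1 and MEP2 were lost there. In untreated cells of the H2O2 and MMS courses, which share no array with these, the mutant level of PUT1 was above that of the wild type by 2.34 and 0.90, and that of GAP1 by 0.92 and 2.15. In the other direction RRP43, an exosome subunit, rose by 0.10 in the wild type, against 1.25 in the mutant (0.0230, adjusted p = 0.00098, and 0.0224, adjusted p = 0.0042, with 14). The 14-array call of RRP43 was lost over 0 to 30 min. LIN1, also chosen after its values were seen, rose by 0.39 and 1.76 (0.0378, adjusted p = 0.0072, and 0.0364, adjusted p = 0.019, with 14). Its call was lost over 0 to 30 min in both fits and, with 14 arrays, without the wild type 50 min array and with time point as a block.

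The starting levels of the decay cultures differed between the strains in some of the groups with many calls and not in others. On the 0 min arrays of the decay courses 143 of 144 ribosome biogenesis genes were lower in the mutant, with a median gap of -0.38, and at 50 min 131 were higher, with a median gap of 0.89. The cytosolic ribosomal proteins began level, with a median gap of -0.00459 and 79 of 148 lower in the mutant, and the aminoacyl-tRNA synthetases likewise, with -0.00839 and 11 of 19. The trehalose and glycogen genes had a median gap of 0.43 at 0 min and -0.32 at 50 min. In the untreated cells of the H2O2 and MMS courses, averaged over both, the gaps of ribosome biogenesis and of trehalose and glycogen genes were -0.13 and 0.06, and 130 of 144 and 8 of 20 genes were lower in the mutant. Across all 5716 probe sets the slope difference and that untreated gap correlated at -0.240 with 14 arrays and -0.226 with 12, a description over genes that share arrays and are not replicates. Without the 0 min arrays of both strains the median difference was 0.0311 for ribosome biogenesis and -0.0151 for trehalose and glycogen with the remaining arrays of the 12-array fit, about as large as with them.

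Half-lives put these slopes into minutes, under the authors' scaling, which gives both courses the same mean decay. That mean was taken from earlier decay measurements of the authors. The minutes are therefore relative to it, and no absolute rate was measured in these cultures. An exponential was fitted to their scaled ratios, and 4400 probe sets reached R2 above 0.9 in both strains with all 7 mutant arrays, and 4550 with 5. Over the latter the median half-life was 23.2 min in the wild type and 24.1 min in the mutant, with 5th and 95th percentiles of 11.3 and 47.2 min against 14.8 and 40.0 min. The mutant half-life was the longer one for 2679 of the 4550, and for 2623 of the 4400. All 144 ribosome biogenesis genes were fitted in both strains, with a median of 11.5 min in the wild type and 16.2 min in the mutant (17.9 min with 7 arrays). SSF1 had 8.89 min in the wild type and 15.7 min in the mutant. For 148 ribosomal protein probe sets the medians were 19.5 and 22.4 min. The 58 mitochondrial ribosomal proteins that could be fitted had 42.4 and 31.0 min. That list rose in relative level in both strains (median slopes 0.0171 and 0.00848). Its minutes rest on the scaling and are not read as stability. Of 41 Msn2/4 genes only 4 could be fitted in both strains with 7 mutant arrays.

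The second pair of cultures of the same strains, given H2O2 7 min before phenanthroline, was set beside the first. No array is shared, and whether the authors normalized both pairs as 1 set is not given in the sources used here. Of the 862 and 859 probe sets called positive and negative with 12 arrays, 846 and 824 had the same sign in H2O2, and 731 and 684 also passed there, where 45.7% of all probe sets passed, 19.7% as positive and 26% as negative. With 14 arrays 789 of 805 and 770 of 804 had the same sign, and over all probe sets 83.5% (12 arrays) and 82.8% (14) did. In H2O2 ribosome biogenesis genes had a median difference of 0.0282 with 134 of 144 passing as slower, and SSF1 had 0.0364. Trehalose and glycogen genes had -0.0137, and GPH1 -0.0508.

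A few genes of oxidative stress defence had a strain difference in the reference cultures that was smaller or absent from the calls in H2O2. OYE3, an NADPH dehydrogenase of the old yellow enzyme family, read 7.32, 7.18, 7.47, 9.15, 10.74, 11.62 and 12.001 in the wild type, and its mutant values were 8.21, 8.33, 8.57, 8.51, 9.14, 9.67 and 10.27. The reference difference was -0.0705 ± 0.0106 (SE, adjusted p = 0.0014) with 12 arrays and -0.0704 (adjusted p = 0.00076) with 14, the most negative of all probe sets tested, and in H2O2 it was -0.00902 (adjusted p = 0.035). The change between conditions was 0.0615 with 26 arrays and passed the test (adjusted p = 0.0079). GTT2, a glutathione transferase, rose by 1.81 in the wild type, against 0.43 in the mutant without H2O2. Its differences were -0.0320 in the reference cultures (-0.0317 with 14 arrays) and -0.00187 in H2O2, and the change of 0.0301 passed (adjusted p = 0.00018). SRX1, sulfiredoxin, had -0.0352 (-0.0366 with 14 arrays) and 0.00137, with a change of 0.0365 (adjusted p = 0.00047). The 14-array reference call of SRX1 was lost over 0 to 30 min. Of the 39 genes of oxidative stress defence 12 passed as negative in the reference pair in either fit and none as positive. Over all probe sets 14.1% passed as negative there with 14 arrays and 15.0% with 12. In H2O2 5 of the 39 passed in each direction, smaller shares than the 19.7% positive and 26% negative of all probe sets. The H2O2 counts therefore do not set this list apart.

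**Figure D5:**
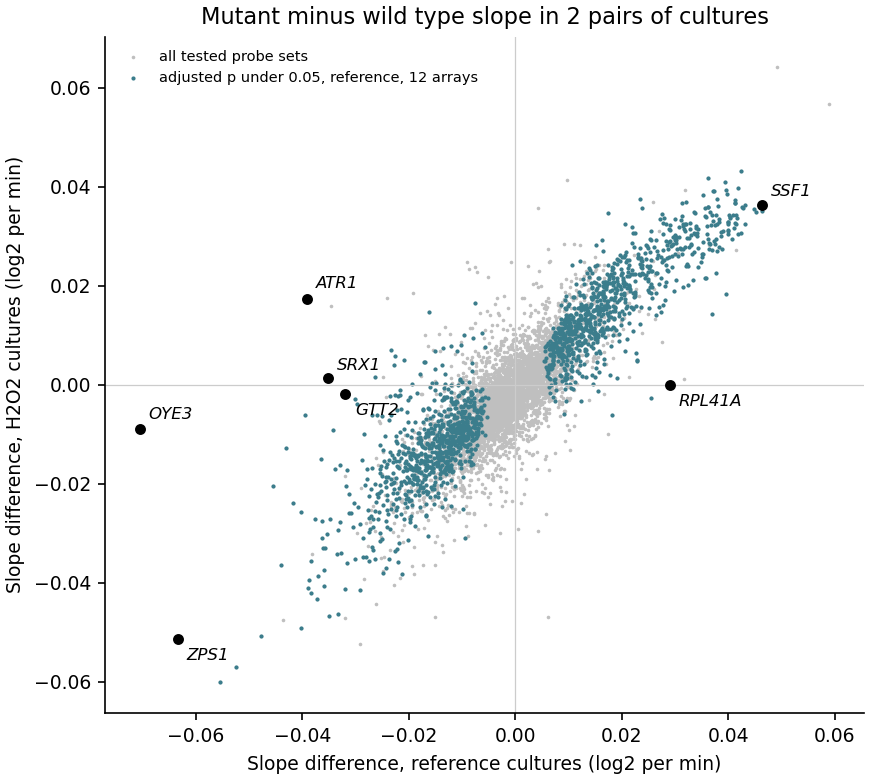
Slope difference, mutant minus wild type (log2 units per min), in the H2O2 cultures against the reference cultures (12 arrays), 1 point per probe set, with those past an adjusted p of 0.05 in the reference pair in colour. SSF1 (0.0465 and 0.0364) and ZPS1 (-0.0633 and -0.0515) differ alike in both pairs, while OYE3, SRX1, GTT2, ATR1 and RPL41A lie apart from the main cloud of points.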

How the data were processed

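The authors processed Affymetrix Yeast 2.0 arrays with RMA and deposited log2 levels. They also deposited linear ratios to 0 min, multiplied at each time by a factor that sets the mean decay. No build or annotation is given in the sources used here. Of 10928 probe sets, 5716 match S. cerevisiae and were tested, 5498 with a gene symbol, and 97.3% lay above the S. pombe background of 5.21. The number of arrays limits the precision.

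limma 3.58.1 (R 4.3.3) fitted an intercept and a slope per strain, with Benjamini-Hochberg adjustment over all tested probe sets. On simulated data with 5716 probe sets, slope differences of 0.02 and 0.04 were recovered in 76% and 92% with 14 arrays and 74% and 96% with 12. Each size was given to 50 probe sets, in straight courses with independent normal errors. Real courses bend and 2 arrays lie out of order, so these shares do not measure recovery in the real data. Exponentials with a free start were fitted with scipy 1.17.1 (R2 minimum 0.9). Python 3.11.15, numpy 2.4.6, pandas 2.3.3 and matplotlib 3.10.9 were used.

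The arrays, the 38 gene lists (1245 of 1263 entries matched) and the tests were chosen with earlier results of these data known. Genes named are the 12 and 10 largest differences per direction with 14 and 12 arrays, up to 4 members of a list by size of difference, RPO26, RPB4, RPB7 and the strain markers. Others were chosen after their values were seen. Alternatives covered the 2 arrays, weights, scaling, background, times and each array left out, and 1 was added after seeing the data.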

Additional observations from a re-analysis of the deposited data

Results flagged for a closer look

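In 6 of the 174 named genes with a symbol the strain difference of the slope itself differed between the H2O2 and the reference cultures, by a limma test of the difference over 28 arrays adjusted over all probe sets, where 37 of 5716 passed (38 with 26 arrays). The change, H2O2 minus reference, was 0.0614 for OYE3 (adjusted p = 0.0059), 0.0380 for SRX1 (adjusted p = 0.0013) and 0.0298 for GTT2 (adjusted p = 0.00014). It was 0.0557 for ATR1, a multidrug transporter gene (adjusted p = 0.019), whose reference difference was -0.0383 and whose H2O2 difference was 0.0173. ATR1 fell from 10.70 to 9.70 and came back to 10.82 in the wild type, and fell from 11.27 to 9.64 in the mutant. Its reference call was lost without the wild type 50 min array (adjusted p = 0.098 with 14 arrays and 0.076 with 12) and, with 12 arrays, without the mutant 0 min array (adjusted p = 0.064).

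The ribosomal protein gene RPL41A had a change of -0.0296 (adjusted p = 0.023), from 0.0294 in the reference pair to -0.000163 in H2O2. Its probe set may read more than 1 transcript, and its 14-array reference call was lost over 0 to 30 min. LEU2, the marker of the plasmid in the mutant, had a change of 0.0111 (adjusted p = 0.025). It rose from 13.90 to 14.31 in the wild type and lay between 14.33 and 14.42 in the mutant.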

How the results depend on the processing

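With 14 arrays the count of 1609 went to 3393 with array weights (1477 positive and 1916 negative) and to 905 with 0 to 30 min only. With 12 arrays the count of 1721 went to 818 with 0 to 30 min only. Leaving out 1 array at a time gave 1170 to 1850 with 14 arrays and 884 to 2059 with 12, lowest without the mutant 0 min array in both. The other settings, the added one (709 positive and 721 negative without the 10 and 20 min arrays of both strains) and the exchange of the mutant 10 and 20 min times (942 and 1016) included, stayed within 1.5 times the counts. Pairing the strains by time point, as a block, gave 1548 (797 and 751) with 14 arrays. Replicate numbers pair nothing here, since each strain and time holds 1 array.

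The median difference of endoplasmic reticulum folding genes turned to 0.00141 with 14 arrays and 0.00046 with 12 over 0 to 30 min only. SCJ1 turned to 0.00463 (adjusted p = 0.66) and 0.00179 (adjusted p = 0.86), and ATR1 with 14 arrays to 0.000797 (adjusted p = 0.98). Without the wild type 50 min array the median with 14 arrays was -0.0273 for Msn2/4 genes and -0.00496 for the iron regulon. The median of heat shock chaperones turned to -0.00424 with 14 arrays without that array. Over 0 to 30 min only, the medians with 14 and 12 arrays were -0.0418 and -0.0351 for trehalose and glycogen, -0.0402 and -0.0335 for Msn2/4 genes, 0.0337 and 0.0306 for tRNA and rRNA modification and 0.00637 and 0.00518 for ribosomal proteins. The cause was not tested.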
